A study of Oryzias latipes with 6 samples.

Results

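The genes described here make, move and break down catecholamines and acetylcholine, and they were taken by their exact row names: th, th2, dbh, slc18a2, SLC6A2, chata, CHAT, SLC5A7 and ache. All 9 are present among the 24365 genes of each table. The data are single-nucleus RNA-seq of whole brains from 6 adult male Japanese medaka (Oryzias latipes) of the F1 generation, aged 6 months. In the control lineage (3 fish) the parents were adults held in solvent, and in the BaP lineage (3 fish) the parents spent 21 days, from 6 months of age, in water with benzo[a]pyrene (BaP, a combustion product) at 1 µg/L. The F1 fish of both lineages grew up in clean water and were not exposed to the compound in it. All libraries were sequenced in a single batch, per the labels. The authors deposited a table for each of 14 nuclear clusters that compares BaP with control lineage, without values per fish. No value below therefore has a spread over fish.

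Tyrosine hydroxylase turns tyrosine into the precursor of dopamine, and dopamine beta-hydroxylase, encoded by dbh, turns dopamine into noradrenaline. The vesicular monoamine transporter (slc18a2) loads these amines into vesicles, and the noradrenaline transporter (SLC6A2) takes noradrenaline back up from the synapse. Acetylcholine is made by choline acetyltransferase from choline that the transporter encoded by SLC5A7 brings into the terminal, and acetylcholinesterase (ache) splits it in the synaptic cleft. Teleost fish carry a pair of tyrosine hydroxylase genes, th and th2, and in zebrafish th2 is expressed in the hypothalamus. The rows chata and CHAT both carry a choline acetyltransferase name, and the tables do not say how they are related.

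A level below is the mean over the nuclei of a cluster in CPM (counts scaled to a common total), worked out from the authors' deposited tables with the floor shared by undetected genes taken off. The arithmetic also gives estimated counts, nuclei and depth, under assumptions stated with the processing. Clusters held 69 to 1754 nuclei, 7512 in all (2429 control, 5083 BaP), at a mean depth of 684 to 1905 unique molecular identifiers (UMIs, 1 per captured transcript). The labels name a target of 8000 nuclei per sample, well above this estimate, and the gap was not resolved. Counts, nuclei and intervals below hold only under those assumptions. Intervals in brackets are exact 95% Poisson intervals of the rounded estimated counts and cover counting error only. Of 126 pairs of a gene and a cluster, 94 had any count, and 56 of these rested on fewer than 10 estimated counts. Clusters are called by number. Cluster 1 had 4 of 4 GABAergic markers at 2 or more times their mean in the other clusters, and was led by peptide genes such as oxt, sst1.1 and npy. Clusters 0 and 2 had 2 of 4 GABAergic markers at that ratio and shared the leading genes tfap2d and pou4f2. Cluster 4, led by adma, pvalb7 and ONECUT3, had at most 1 marker of any list at that ratio. Cluster 6 had 6 of 6 markers of myelinating glia, cluster 9 had 5 of 7 of radial glia, and cluster 8 had 4 of 5 of endothelium and 3 of 3 of erythrocytes. Cluster 7 was led by keratin genes and had 4 of 5 epithelial markers, but also 4 of 5 of skeletal muscle, 4 of 6 of fibroblasts or meninges and 3 of 4 of microglia or macrophages, so it was mixed.

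The 5 catecholamine genes were sparse, with 107 to 239 estimated counts each over all clusters, and their counts lay mainly in clusters 0, 1 and 2. These 3 clusters held 82.3% of th counts, 78.9% of th2, 89.6% of slc18a2, 75.7% of SLC6A2 and 53.5% of dbh, against 51.6% of all UMIs. The order of clusters differed from gene to gene.

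For th, the level was 21.99 CPM in cluster 2 [15.2 to 30.9], 17.1 in cluster 1 [12.1 to 23.3] and 13.2 in cluster 0 [7.62 to 21.6], on 33, 39 and 16 estimated counts. These 3 clusters could not be ranked, since their intervals overlapped. In the other clusters where th had counts, its level rested on at most 6 of them. Clusters 9, 7 and 6 were at 11.6 [2.83 to 26.6], 11.5 [3.97 to 23.5] and 9.29 CPM [2.87 to 27.0]. Their intervals overlapped with those of clusters 0, 1 and 2, so they could not be ranked below these. The level of th was 0 in clusters 4, 8, 10, 11, 12 and 13, where a count of 0 allows levels of up to 4.30, 5.88, 12.9, 17.7, 35.5 and 31.1 CPM.

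For th2, the highest level was in cluster 1, at 28.8 CPM [22.3 to 36.6], on 66 estimated counts. Clusters 0 and 2 were at 10.9 [5.77 to 18.5] and 6.87 CPM [3.20 to 12.3], below the interval of cluster 1. The radial glia marker cluster 9 showed 17.6 CPM [7.32 to 37.5] and cluster 8 showed 14.1 [5.51 to 28.2], on 7 counts each, and these intervals overlapped with that of cluster 1. Thus cluster 1 held 58.3% of th2 counts but 36.7% of th counts.

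For dbh, the highest level was outside clusters 0, 1 and 2. It reached 82.9 CPM in cluster 4 [63.1 to 107], on 58 estimated counts, against 37.6 in cluster 1 [30.0 to 46.3] and 30.8 in cluster 3 [20.5 to 44.0]. The interval of cluster 4 lay above both of these, which overlapped with each other. Clusters 0, 2 and 8 had 15.6, 15.4 and 15.4 CPM on 19, 23 and 8 counts. Clusters 12 and 13, at 35.3 [7.32 to 104] and 21.6 CPM [2.51 to 74.8] on 3 and 2 counts, could not be ranked against cluster 4. In cluster 4, where th had no counts, th2 was at 6.24 CPM [1.56 to 14.7] on 4 counts, slc18a2 was at 7.44 CPM on 5 counts and SLC6A2 at 2.97 CPM on 2. In both lineages cluster 4 had dbh, at 78.2 CPM in control-lineage nuclei [42.7 to 126] and 84.7 in BaP-lineage nuclei [62.0 to 115], with a counting interval of -0.71 to 1.12 for the log2 ratio.

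The vesicular transporter slc18a2 was the catecholamine gene most concentrated in 1 cluster. Its level in cluster 1 was 66.6 CPM [56.6 to 78.2] on 153 estimated counts, which were 71.3% of its total. Clusters 0 and 2 were at 16.8 [10.2 to 25.7] and 12.7 CPM [7.63 to 19.8] and could not be ranked against each other. Cluster 13 was at 18.4 CPM [2.51 to 74.8] and cluster 10 at 16.2 [4.70 to 44.1], on 2 and 4 counts. The interval of cluster 13 overlapped with that of cluster 1, so these 2 clusters could not be ranked. In clusters 6, 7 and 8 it rested on 2, 1 and 1 counts. Serotonin neurons also use this transporter, and cluster 1 held the serotonin synthesis genes tph2 and tph1a at 8.32 and 9.65 CPM. The serotonin transporter gene slc6a4b was at 9.01 CPM there. These levels were not particular to cluster 1, since tph2 was at 12.1 CPM in cluster 0, 10.6 in cluster 8 and 9.22 in cluster 7. For tph1a the level was 25.6 CPM in cluster 7, and for slc6a4b it was 14.9 in cluster 9. The part of serotonin neurons in the slc18a2 level was not tested.

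SLC6A2 had its highest estimate in cluster 1 as well, at 45.3 CPM [37.1 to 55.0] on 104 estimated counts. It was also counted in clusters without a neuronal marker profile. It had 30.1 CPM in the keratin-led cluster 7 [17.9 to 49.1] and 21.5 in the endothelial and erythrocyte cluster 8 [10.8 to 38.5], on 17 and 11 counts. The intervals of clusters 7 and 8 overlapped with that of cluster 1, so neither could be ranked against it. Their levels were not below the 16.2 CPM of cluster 2 [10.3 to 23.8] or the 10.996 CPM of cluster 0 [5.77 to 18.5]. Clusters 6, 7 and 8 together held 15.2% of SLC6A2 counts and 14.9% of all UMIs, but 1.63% of slc18a2 counts. For comparison, the summed level of the 4 GABAergic markers was 2406 CPM in cluster 1, 360 in cluster 7 and 588 in cluster 8. The part of free RNA in these levels was not tested.

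The acetylcholine genes chata and SLC5A7 shared 1 main cluster. The level of chata was 58.8 CPM in cluster 1 [49.4 to 69.7] on 135 estimated counts and 23.7 in cluster 0 [15.5 to 33.7] on 28. It was 2.85 CPM in cluster 2 [0.727 to 6.83], on 4 counts. Cluster 13, at 9.25 CPM [0.262 to 57.7] on 1 count, could not be ranked against cluster 1. SLC5A7 was at 49.2 CPM in cluster 1 [40.6 to 59.3], 13.6 in cluster 0 [7.62 to 21.6] and 7.10 in cluster 2 [3.66 to 13.1]. Cluster 1 thus held 73.1% of chata and 74.3% of SLC5A7 counts, on 23.7% of all UMIs. The row CHAT had 42.0 estimated counts in all, 19 of them in cluster 1 at 8.30 CPM [4.99 to 12.9]. Its highest level, 8.93 CPM in cluster 6, came from 3 counts, so no leading cluster can be given for it.

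**Figure D1:**
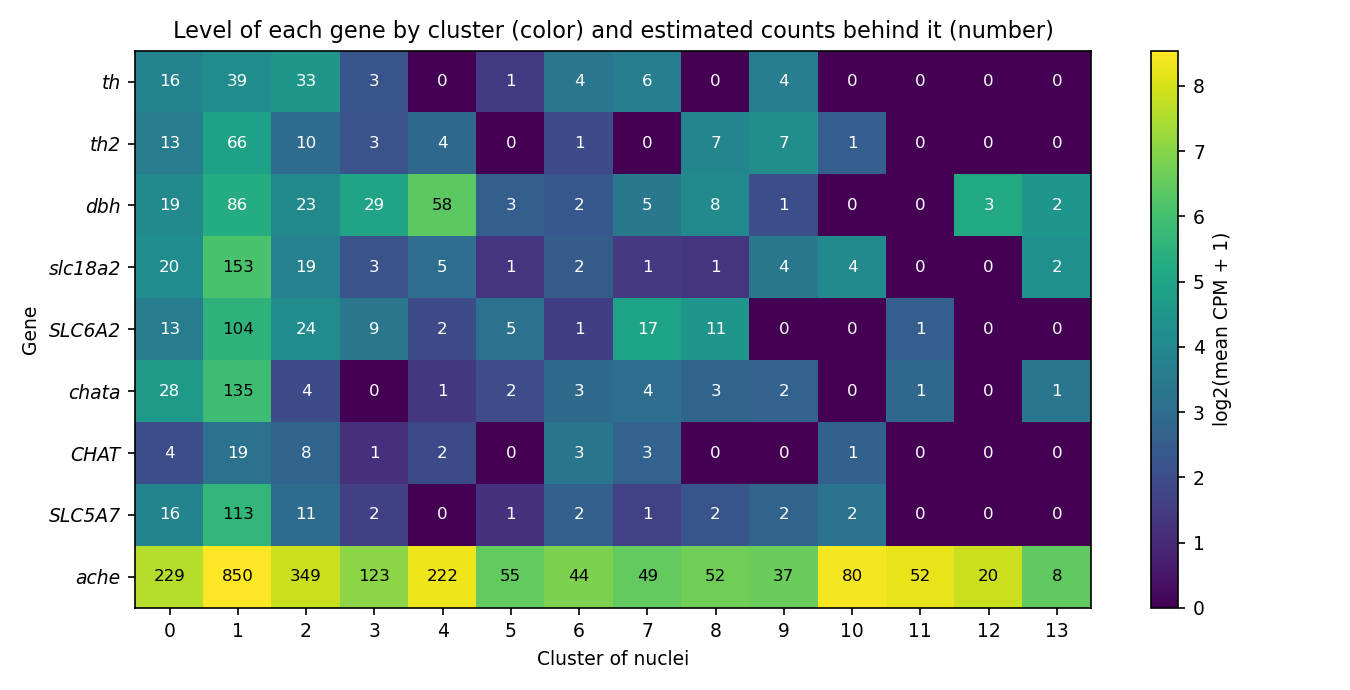
Level of each gene (rows) in each of 14 clusters of nuclei (columns), as log2(mean CPM + 1) in color, with the estimated counts over both lineages printed in each cell. Cluster 1 carries most counts of slc18a2, chata and SLC5A7, dbh is highest in cluster 4 (58 counts), and ache is present in every cluster.

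Acetylcholinesterase transcripts were counted far more often. ache had 2169 estimated counts and was detected in 14 of 14 clusters. Cluster 1 had 371 CPM [346 to 397], cluster 10 had 343 [273 to 429], cluster 4 had 319 [277 to 363] and cluster 11 had 305 [229 to 402]. The intervals of these 4 clusters overlapped, so that no order can be given among them. Clusters 2, 12 and 0 had 233 [209 to 259], 231 [144 to 365] and 191 CPM [167 to 217]. The interval of cluster 12 overlapped with all 4 and that of cluster 2 with cluster 11, while that of cluster 0 lay below the 4. Cluster 3 had 130 CPM [108 to 155], and clusters 5, 6, 7, 8, 9 and 13 lay between 86.6 and 115 CPM. These included the myelin, radial glia, endothelial and keratin clusters. Levels are not compared between genes, since they are not set per length.

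Acetylcholinesterase is tethered to the cell surface by PRIMA1, a membrane anchor of brain neurons, or by COLQ, a collagen tail best known from the neuromuscular junction. Both were described here after their values were seen. PRIMA1 was highest in cluster 4, at 64.3 CPM, against 30.3 in cluster 2, 17.0 in cluster 1 and 13.52 in cluster 0. It was also at 28.4 CPM in the radial glia marker cluster 9 and 22.6 in cluster 10, on 10.9 and 5.23 estimated counts. COLQ stood at 275 CPM in cluster 5, where it was the gene with the highest ratio to the other clusters, and at 9.87 in cluster 1 and 6.63 in cluster 4. Cluster 5 had 3 of 5 markers of cerebellar granule neurons and an ache level of 89.3 CPM [66.8 to 115].

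**Figure D2:**
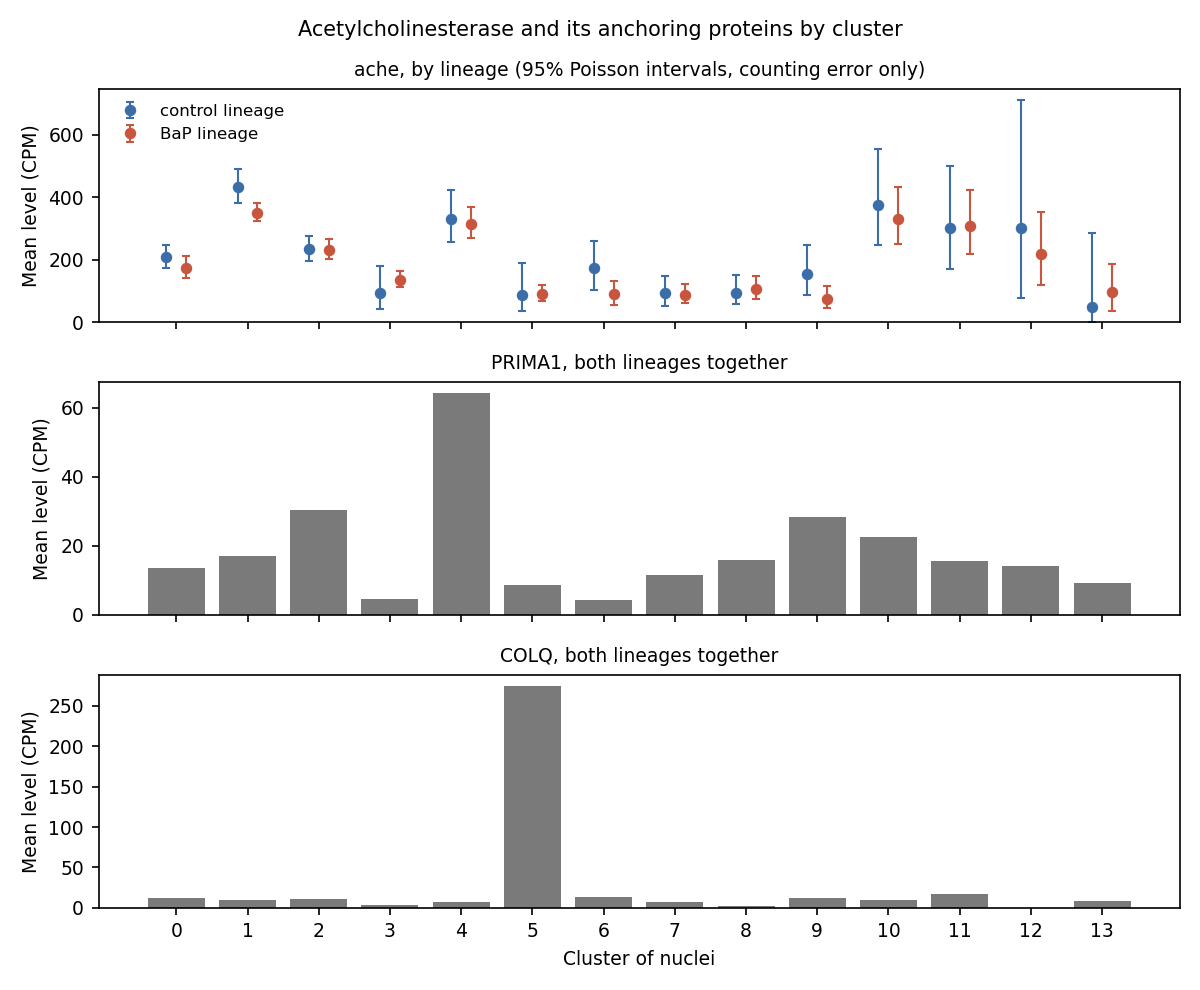
Mean level in CPM of ache by cluster and lineage (points with 95% Poisson intervals, counting error only) and of PRIMA1 and COLQ over both lineages (bars). In cluster 1, ache was at 432 CPM in the control lineage and 351 in the BaP lineage, with intervals that just meet, while PRIMA1 was highest in cluster 4 (64.3 CPM) and COLQ in cluster 5 (275 CPM).

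Over the 14 clusters, the patterns of the catecholamine and acetylcholine genes were partly alike. Pearson correlations of log2(CPM + 1) are given as a description, since all points come from the same libraries and most levels are near 0. SLC5A7 had r of 0.76 with th2, 0.70 with th and 0.69 with slc18a2, and 0.50 with chata. dbh had r between -0.05 and 0.28 with the other 8 genes, and ache between -0.12 and 0.37. Among 9683 other genes with a symbol and at least 30 estimated counts, the likest to SLC5A7 were KCNN1 (0.93), calcb (0.90) and insm1b (0.85). Those likest to chata were the receptor tyrosine kinase gene ret (0.78), hmx2 (0.77) and sp5a (0.77). For ache they were ggt7 (0.90), pcbp4 (0.89) and the kainate receptor gene GRIK2 (0.87). For th2 they were GPR149 (0.94), marchf2 (0.89) and dnajc28 (0.85), and for th they were dkk2 (0.88), ZNF532 (0.84) and NXPH2 (0.84). dbh was likest to pik3r6a, FCSK and skp1 (each 0.87), and slc18a2 to naprt (0.85), nppal (0.83) and si:cabz01085950.1 (0.83). SLC6A2 was likest to anapc10, dnmt3ba and ift20 (0.87, 0.87 and 0.86), and CHAT to ckmt2a, prlhr2b and SH2D3C (0.87, 0.85 and 0.84). Such values are easily high when a gene has counts in few clusters.

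No gene of the set differed between the lineages at an adjusted p under 0.05 in any cluster of the authors' deposited tables. Over all genes and clusters, 0.248% of comparisons were called at that threshold (847 of 341110), so that 0 calls in 126 is near that background. The smallest adjusted p was 0.147, for th in cluster 1 of the authors' deposited table. In the authors' deposited tables, 7 of the 94 detected pairs had an unadjusted p under 0.05, 5 of them lower and 2 higher in the BaP lineage. Among all detected genes and clusters 4.89% passed in the same way, 1.92% lower and 2.97% higher. That background was not matched to the set in counts. The share of nuclei in each lineage was itself worked out from p of genes with 1 count, taking single nuclei as the replicates. Whether the authors' test did so is not stated in the sources used. A p with nuclei as replicates does not measure the spread between fish.

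Of those 7 pairs, 4 were in cluster 1, where 8.22% of detected genes had an unadjusted p under 0.05. The other 3 were in clusters 0 and 5, where 6.44% and 3.74% of detected genes had one. Of the 9 genes, 8 had a negative and 1 (th2) a positive log2 fold change in the authors' deposited table for cluster 1, against 42.6% of all detected genes with a negative one. The median was -0.26 over the 9 genes and 0.01 over all detected genes of the authors' deposited table. All detected genes include those with 1 count, whose values are damped toward 0, so these backgrounds are not matched to the 9 genes in level. Over genes above the median level of detected genes in cluster 1, the median was 0.04. The genes share the same nuclei and fish, so they are not independent. Cluster 1 had 315 control-lineage and 975 BaP-lineage nuclei.

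In cluster 1, th was at 37.7 CPM in the control lineage [23.2 to 57.3] and 10.4 in the BaP lineage [6.16 to 16.4], on 21 and 18 estimated counts. The intervals did not overlap. The authors' deposited table gave th a log2 fold change of -0.42 in this cluster, with p = 0.0019 and adjusted p = 0.147. That value is damped toward 0 by a prior count, and without it the log2 ratio was -1.86 (95% interval of counting error -2.85 to -0.87).

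dbh in cluster 1 was at 65.9 CPM in the control lineage [46.5 to 91.1] and 28.4 in the BaP lineage [20.9 to 37.4], on 37 and 49 counts. Its log2 fold change in the authors' deposited table was -0.46, with p = 0.00539 and adjusted p = 0.270. Without the prior count the log2 ratio was -1.21 (-1.87 to -0.57). SLC5A7 was at 75.6 [54.1 to 101] and 40.7 CPM [32.0 to 51.7], and the authors' deposited table gave -0.39 with p = 0.0402 and adjusted p = 0.716. ache was at 432 [380 to 490] and 351 CPM [324 to 380], and the authors' deposited table gave -0.26 with p = 0.0468 and adjusted p = 0.776. The lineages' intervals were apart for th, dbh and SLC5A7 and just met for ache, and none of the 4 differences passed the adjusted threshold.

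The remaining genes of cluster 1 had unadjusted p of 0.05 or more. chata was at 79.6 [58.6 to 108] and 52.1 CPM [41.8 to 63.8], with p = 0.140 in the authors' deposited table, although the interval of counting error for its log2 ratio (-1.16 to -0.08) left out 0. SLC6A2 was at 60.9 [42.1 to 84.9] and 40.2 CPM [31.5 to 51.0], slc18a2 at 76.5 [55.6 to 103] and 63.4 [52.2 to 76.5], and th2 at 24.8 [13.7 to 42.0] and 30.1 [22.4 to 39.4]. CHAT was at 10.8 [3.93 to 23.3] and 7.50 CPM [3.99 to 12.8]. The lineages' intervals overlapped for these 5 genes. A cluster mean cannot tell fewer nuclei of a type from less RNA per nucleus, and cluster 1 held 12.97% of control-lineage and 19.2% of BaP-lineage nuclei.

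**Figure D3:**
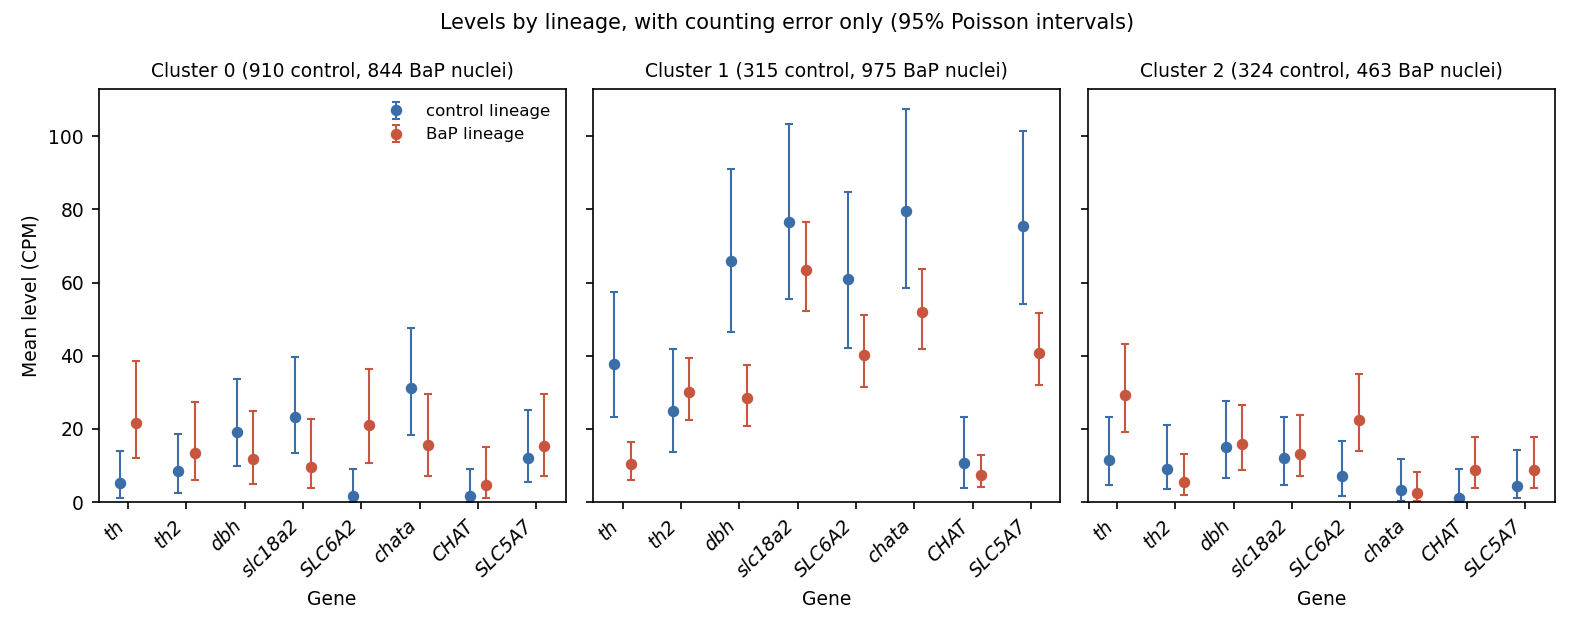
Mean level in CPM of 8 genes in control-lineage (blue) and BaP-lineage (red) nuclei of clusters 0, 1 and 2, with 95% Poisson intervals that cover counting error only. In cluster 1 the intervals of th, dbh and SLC5A7 are apart, and in cluster 0 those of SLC6A2, while th in clusters 0 and 2 has its higher value in the BaP lineage.

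The sign of th differed between clusters. In cluster 0, th was at 5.24 CPM in the control lineage [0.993 to 14.1] and 21.7 in the BaP lineage [11.98 to 38.5], on 3 and 13 counts, with a log2 fold change of 0.12 and p = 0.0443 (adjusted p = 1) in the authors' deposited table. In cluster 2 it was at 11.6 [4.56 to 23.4] and 29.3 CPM [19.3 to 43.2], with 0.30 and p = 0.0779 in the authors' deposited table. Without the prior count the log2 ratios of th were 2.05 (0.36 to 4.68) in cluster 0 and 1.34 (0.14 to 2.83) in cluster 2. These counting intervals left out 0, although the lineages' own intervals overlapped, and the difference between clusters was not tested. Over all clusters together th had 37.3 estimated counts on 2429 control-lineage nuclei and 69.6 on 5083 BaP-lineage nuclei.

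SLC6A2 also took both signs. In cluster 0 it was at 1.71 CPM in the control lineage [0.0406 to 8.95] and 21.0 in the BaP lineage [10.7 to 36.3], on 1 and 12 counts. The authors' deposited table gave a log2 fold change of 0.14 with p = 0.00388 and adjusted p = 0.350. In cluster 5 the counts were 3 against 2, on 60 and 431 nuclei, and the authors' deposited table gave -0.41 with p = 0.0359 and adjusted p = 1. In cluster 2 the levels were 7.09 [1.77 to 16.6] and 22.6 CPM [13.9 to 35.0], with 0.28 and p = 0.0523 in the authors' deposited table. Without the prior count the log2 ratios of SLC6A2 were 3.62 (0.94 to 9.11) in cluster 0, -3.20 (-7.01 to -0.30) in cluster 5 and 1.67 (0.23 to 3.82) in cluster 2. The smaller of the lineages' counts was 1 to 4 in these 3 pairs.

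For ache, the log2 fold change was below 0 in 9 clusters and above 0 in the other 5, by the authors' deposited tables. The most negative values were -0.52 in the radial glia marker cluster 9 and -0.46 in the myelin marker cluster 6 of the authors' deposited tables, with p = 0.0922 and p = 0.0698. There ache was at 154 [86.7 to 246] against 73.6 CPM [46.5 to 115], and at 172 [103 to 260] against 89.2 CPM [55.9 to 132]. In cluster 2, with 144 and 205 counts, its levels were 233 and 232 CPM, and the counting interval of the log2 ratio ran from -0.32 to 0.31. In cluster 4 that interval was -0.50 to 0.37, and changes of these sizes were not excluded.

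**Figure D4:**
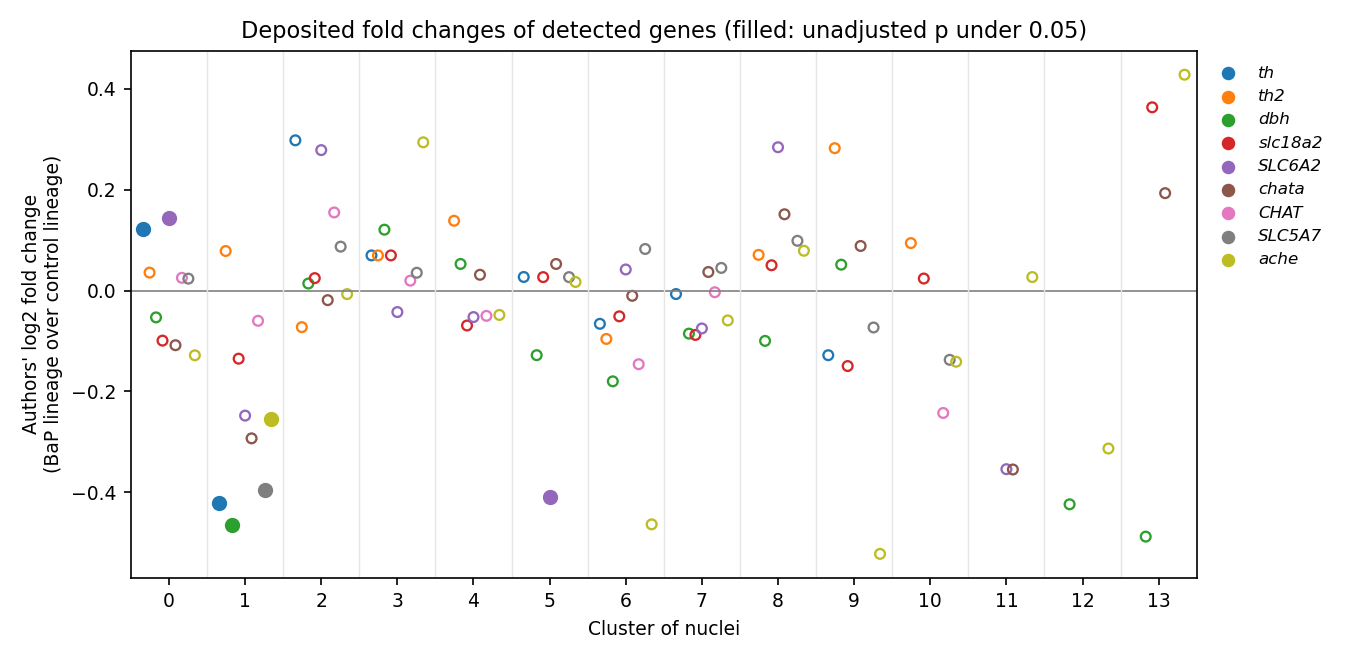
Log2 fold change (BaP lineage over control lineage) of each detected gene in each cluster, as in the authors' deposited tables, with filled points where the unadjusted p was under 0.05. Points from the authors' deposited table for cluster 1 lie below 0 for 8 of 9 genes, down to -0.46 for dbh, and no point of any cluster has an adjusted p under 0.05.

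Other contents of the nuclei moved between the lineages beside these values. In cluster 1, mitochondrially encoded transcripts made up 17.5% of UMIs in the control lineage and 8.26% in the BaP lineage. The summed level of the 4 GABAergic markers was 2275 and 2448 CPM there, with 1 of 4 lower, and that of the 4 glutamatergic markers 261 and 358 CPM, with 1 of 4 lower. Outside the set, the catecholaminergic markers ddc and slc6a3 summed to 8.73 and 9.29 CPM in cluster 1, with 1 of 2 lower. Of the cholinergic markers slc18a3a and slc18a3b, 1 was at 0 and the other was at 6.99 and 0.262 CPM. The 3 erythrocyte markers were at 787 and 391 CPM with 3 of 3 lower, and the microglia or macrophage markers at 69.9 and 19.7 CPM with 3 of 3 detected ones lower and 1 at 0. In cluster 0 the erythrocyte markers were at 1385 and 626 CPM with 3 of 3 lower, and the GABAergic ones at 1428 and 1553 CPM with 1 of 4 lower. The catecholaminergic markers ddc and slc6a3 summed to 13.3 and 10.2 CPM in cluster 0, with 1 of 2 lower. Also in cluster 0, the fibroblast or meninges markers were at 15.4 and 77.3 CPM. Of these, 4 of 5 detected ones were higher, 1 of 6 was at 0 and col1a2 was called. A higher value in the BaP lineage, as th and SLC6A2 had, was not particular to them in cluster 0. The glutamatergic markers were at 274 and 318 CPM, with 4 of 4 higher. Those of Purkinje or eurydendroid neurons were at 357 and 515 CPM with 6 of 7 higher, and those of skeletal muscle at 14.8 and 28.1 with 4 of 5 higher. The myelinating glia markers there were at 421 and 293 CPM with 6 of 6 lower, those of endothelium at 48.3 and 19.8 with 4 of 4 detected ones lower, and those of radial glia at 1584 and 1328 with 4 of 7 lower and glula called. In cluster 5, where SLC6A2 was lower, the GABAergic markers were at 465 and 293 CPM with 4 of 4 lower. There ddc and slc6a3 summed to 13.3 and 5.12 CPM, with 1 of 2 lower. The radial glia markers of cluster 5 were at 1917 and 1245 CPM with 6 of 7 lower, and the granule neuron markers at 2623 and 2985 CPM with 1 of 4 detected ones lower. The part of these contents in the values of th, dbh, SLC5A7, ache and SLC6A2 was not tested.

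The wider pathway held 107 genes from 9 lists, with 3 calls among 1498 pairs of a gene and a cluster (0.2%), near the background of 0.248%. Of the 3 calls, 1 was higher and 2 were lower, where 0.116% of all comparisons were called higher and 0.133% lower. At an adjusted p under 0.1 there were 8 (0.534%), against a background of 0.347%, with 1 higher and 7 lower in the BaP lineage. The shares of all comparisons higher and lower were not computed at 0.1, so this split cannot be set against a background. The lists were 12 genes of catecholamine synthesis and its cofactor, 4 of transport and breakdown, 17 receptors, 22 transcription factors of catecholamine neurons, 11 genes of acetylcholine transport and breakdown, 4 muscarinic receptors, 17 nicotinic subunits, 15 transcription factors of cholinergic neurons and 7 genes of other monoamine neurons, with some genes in more than 1 list. All 3 calls fell in the acetylcholine transport and breakdown list, in 2 of its 11 genes. That list also holds genes of choline and acetyl-CoA supply, and both called genes are of this kind. Median log2 fold changes over detected pairs ran from 0.01 to 0.06 by list in the authors' deposited tables. Over detected pairs of all genes the median was 0.04, without matching in level.

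SLC44A1, which encodes a choline transporter of cell and mitochondrial membranes, was higher in the BaP lineage in the myelin marker cluster 6. Its level there was 279 CPM in the control lineage and 717 in the BaP lineage, on 33 and 187 counts, and the authors' deposited table gave a log2 fold change of 1.05 with adjusted p = 0.00079. Cluster 6 was also where SLC44A1 was highest over both lineages, at 579.5 CPM. aclya, a gene of ATP citrate lyase, which supplies acetyl-CoA, was lower in clusters 1 and 2. Its levels were 166 against 99.7 CPM in cluster 1 and 185 against 95.5 CPM in cluster 2. Over both lineages aclya had its highest estimate in cluster 6, at 307 CPM. The authors' deposited tables gave aclya -0.48 (adjusted p = 0.0488) and -0.64 (adjusted p = 0.00785). Another row with a name of this enzyme, ACLY, was not called. The authors' deposited tables gave it -0.35 in cluster 1 (adjusted p = 0.507) and -0.11 in cluster 2 (p = 0.587).

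The 5 pairs with an adjusted p between 0.05 and 0.1 were all lower in the BaP lineage. Of these, 3 came from the list of other monoamine neurons, which had 49 detected pairs, and each was in a different cluster. The share of all detected genes in this range of adjusted p was not computed, by direction or in all. Neither the 3 pairs nor their shared direction can therefore be set against a background. The serotonin synthesis genes tph2 in cluster 0 and tph1a in cluster 7 had 15 against 0 and 13 against 1 estimated counts, and fev, a transcription factor of serotonin neurons, had 13 against 4 in cluster 1. Their adjusted p were 0.092, 0.0905 and 0.0832 in the authors' deposited tables. Cluster 7 was mixed, so tph1a there is not tied to a type of neuron. In cluster 1, where fev was lower, the authors' deposited table gave tph2 -0.07 (p = 0.642) and tph1a -0.05 (p = 0.819). The others were the transcription factor genes otpa in cluster 2 (21 against 5 counts, adjusted p = 0.0577) and gata3 in cluster 7 (27 against 14 counts, adjusted p = 0.0733), by the authors' deposited tables. Of these 5 genes, tph1a, fev and otpa were named after their values were seen, and none passed the threshold of 0.05.

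The genes that normally accompany the set were unevenly present. The vesicular acetylcholine transporter genes slc18a3a and slc18a3b had 6.30 and 2.04 estimated counts in all, against 184 for chata and 152 for SLC5A7. The dopamine transporter gene slc6a3 had 21.97 counts and ddc, whose product turns the tyrosine hydroxylase product into dopamine, had 38.5. Their highest levels were 6.34 CPM for ddc and 5.46 CPM for slc6a3, both in cluster 0. Both were at 0 in cluster 4, where a count of 0 allows up to 4.30 CPM, so little can be read from that 0. These 4 genes were chosen for naming after their values were seen.

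In the other lists, the genes with the highest summed levels were named by rule. The orders of clusters given for them are of estimates, for which no intervals were computed. The monoamine oxidase gene mao had 657 counts in 14 clusters and was highest in the radial glia marker cluster 9 (122 CPM) and in cluster 4 (113 CPM), while comtb had 51.7 counts. The cofactor gene gchfr was highest in cluster 3 (124 CPM), and pah, the liver enzyme of phenylalanine breakdown, in cluster 13 (548 CPM). Among receptors, the dopamine receptor gene drd2a reached 201 CPM in cluster 10 against 47.2 in cluster 1, and the adrenergic receptor gene adra2c had 65.6 CPM in cluster 5 and 64.5 in cluster 3, on 40.7 and 61.0 estimated counts, which gives no order. The muscarinic genes chrm2a and CHRM3 were also highest in cluster 10, at 64.3 and 12.1 CPM, on 14.9 and 2.81 estimated counts. Of the nicotinic subunits, CHRNA2 was highest in cluster 2 (115 CPM), and CHRNB2 was spread over 14 clusters with 49.0 CPM at most, in cluster 4. Of the transcription factors, MEIS2 (1218 CPM) and isl1a (92.1 CPM) were highest in cluster 1, gata3 in cluster 2 (192 CPM) and gbx1 in cluster 9 (45.2 CPM, against 34.1 in cluster 1). chka, a choline kinase gene, had 177 CPM in cluster 1 and 271 in cluster 13, and the serotonin transporter gene slc6a4b was highest in cluster 9 (14.9 CPM, on 5.74 counts). None of the genes in this paragraph was called in any cluster of the authors' deposited tables.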

How the data were processed

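Whole brains were frozen, nuclei were released with a homogenizer, and 10x Chromium 3' libraries were made per fish, per the labels' protocols. Cell Ranger is named in the submitters' processing notes without a version. Reads were aligned, libraries aggregated and lineages compared within clusters, per the series design text. How nuclei were filtered and clustered, how doublets were handled and which test was used are not given in the sources used.

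The authors deposited 14 tables of log2 fold changes, log2 mean CPM, p-values and adjusted p-values (equal to Benjamini-Hochberg over 24365 genes within 1.7e-13). The sign was read from the groups' coding in the table names. Depth came from the floor of undetected genes with a prior count of 2. Nuclei came from genes with 1 count, their p and a prior count of 0.125. No source states these values. In tables simulated on clusters 0, 1, 4 and 13 (24365 genes per cluster), recovered numbers of nuclei equalled the simulated ones, and the direction was recovered in 199 of 200, 195 of 195, 191 of 195 and 171 of 176 changed genes with at least 3 counts per lineage. The simulation shares the assumptions. Its changed genes were drawn from those with at least 30 estimated counts and given a log2 fold change of 1 up or down. Of the detected pairs of the set, 56 of 94 had fewer than 10 counts, so the recovery does not carry over to them. Levels per lineage solve both columns for counts without priors, negative solutions set to 0. A count of 0 was taken to allow 3 counts. Lineage ratios have exact conditional binomial (Clopper-Pearson) intervals.

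No test of single genes was added. A call is an adjusted p under 0.05 in the authors' deposited tables. The genes and lists were chosen with earlier results of these data known. Of each list, called genes and the 2 with the highest summed level are named, and of each gene the 3 others most alike in pattern (Pearson correlation). Matching of symbols ignored case and also tried them with a final a or b appended or removed. A RefSeq gene table (ASM223467v1, another build than the authors') held 6 of the 9 symbols, and no coordinates are given. Python 3.11.15, numpy 2.4.6, pandas 2.3.3 and scipy 1.17.1 were used.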

Additional observations from a re-analysis of the deposited data

How the results depend on the processing

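The count of 0 called genes of the set could not change at a threshold of 0.01 or with a required log2 fold change of 1 or more. At 0.1 it was also settled, since the smallest adjusted p in the authors' deposited tables was 0.147. It could have changed with the adjustment over detected genes or over genes with at least 10 estimated counts, and was 0 there too. The smallest adjusted p was 0.113 and 0.0721 in these last settings. In the wider pathway 8 pairs were called at an adjusted p under 0.1, against 3 at 0.05. For the 7 pairs with an unadjusted p under 0.05, subtracting the cluster median, taking out the prior counts or leaving mitochondrial genes out of the total could hardly turn a sign, so the direction was not put to a test. The sizes moved: without prior counts the log2 fold change went from 0.12 to 2.05 for th and from 0.14 to 3.62 for SLC6A2 in cluster 0. In 5 of 21 recalculations, for th, dbh and SLC5A7 in cluster 1, the shift was counted as a move by its size against the width of the counting interval. In cluster 0 those intervals were wide for th (0.36 to 4.68) and SLC6A2 (0.94 to 9.11), so their shifts were not counted. Both intervals still left out the value of the authors' deposited table. The cluster with the highest level held in 29 of 36. For th it was cluster 1 in the control lineage alone and by estimated counts, in place of cluster 2. For dbh it was cluster 12 in the control lineage alone (on 1 count) and cluster 1 by estimated counts, in place of cluster 4. For CHAT it was cluster 2 in the BaP lineage alone and cluster 1 by estimated counts, in place of cluster 6. With clusters under 10 counts left out, a setting chosen after seeing the data, it was cluster 1 for CHAT. No paired analysis was possible because the columns carry no replicate, and no fish could be left out for the same reason. No gene of the set was called, so alternatives for called genes gave no value. Estimated counts limit the precision: 56 of 94 detected pairs had fewer than 10.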
